A study of Tulipa gesneriana with 15 samples.

Results

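Late senescence was compared with buds, the far ends of flower life, in the garden tulip (Tulipa gesneriana). The comparison used 6 of the 15 libraries of the series, 3 of late senescence and 3 of buds, taken by their labelled stage and not by any measured value. All flowers were labelled WT, and no treatment is named in the labels. RNA was extracted from whole flowers, so each library mixes tepals, stamens and pistil, although petal senescence is the subject in the title. The stages partial blooming, full blooming and early senescence, with 3 libraries each, lie between these ends and are used below to describe the course. Nothing in the labels ties the libraries of a stage to separate plants, so the p-values describe the spread among libraries, which could be technical.

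Petal senescence is an active, ordered process in plants, in which cells dismantle proteins, membranes and organelles before they die and export the released nutrients to other parts. A bud, by contrast, is a growing organ whose cells divide, expand and lay down pigment and wall material. Expression is given as FPKM, fragments per unit of transcript length and of library size, which the authors deposited for 76388 gene identifiers. The table pairs none of these with a gene name or function. No pathway can therefore be followed here, the labelled stages were not checked against marker genes, and genes are described by level, size of change and course. In bulk tissue of this kind, fewer cells of a type and less RNA per cell cannot be told apart.

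The 100 most abundant genes held more of the summed FPKM in each late senescence library than in any bud library. Most of that difference lay in the single highest gene of each library. The numbers of genes at 1 FPKM or more overlapped between the stages. Genes at 1 FPKM or more numbered 40774, 40772 and 42158 in the late senescence libraries, against 41377, 41115 and 38364 in those of buds. Genes at 100 FPKM or more numbered 1675, 1535 and 1560 in late senescence, against 1378, 1503 and 1477 in buds, without overlap. The 100 highest genes of each library held 24.4%, 22.0% and 22.9% of its summed FPKM in late senescence and 19.5%, 19.5% and 20.8% in buds. This share was 23.1% ± 1.19 in late senescence and 19.9% ± 0.736 in buds (SD, n = 3 each; exact two-sided permutation p of 0.1, the smallest p that 3 against 3 libraries allow). The highest gene of each library alone held 4.12% ± 0.675 in late senescence and 1.23% ± 0.375 in buds (SD, n = 3 each). In percent of the summed FPKM, late senescence thus exceeded buds by 3.20 for the 100 highest genes and by 2.88 for the highest gene alone. It took 1024 ± 71.4 genes to reach 50% of the summed FPKM in late senescence and 1213 ± 128 in buds (SD, n = 3 each; exact two-sided permutation p of 0.2). The summed FPKM was also higher in late senescence, at 1094997, 1016148 and 1044450, against 911145, 977238 and 930042 in buds. The table gives no read counts, so the depth behind these values is unknown.

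Replicates resembled each other far more than the 2 stages did. Over tested genes, Pearson's correlation of log2(FPKM + 1) was 0.94 on average among late senescence libraries and 0.92 among bud libraries, and 0.68 between the stages. These are correlations across genes, which are not independent replicates, and are given as a description. By correlation, bud replicate 2 lay nearest to the other end. Its correlation with the late senescence libraries averaged 0.71, against 0.64 for bud replicate 1 and 0.68 for bud replicate 3. Gene by gene the buds differed less: the bud library nearest to the late senescence mean was replicate 1 in 28.3% of tested genes, replicate 2 in 36.0% and replicate 3 in 35.6%. Late senescence replicate 2 correlated at 0.93 with each of the other libraries of its stage, which correlated at 0.96 with each other. Below, the numbers of calls, the median places, some lowest-stage shares and the all-or-none counts are also given without bud replicate 2. The level bands, shares of summed FPKM, lists of most abundant genes and largest steps are given only with it. So are the genes close at the ends and the other stages against buds.

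Close to equal numbers of genes were higher and lower in late senescence than in buds, and the largest changes were more often rises. Of 43485 genes at 1 FPKM or more in at least 3 of the 6 libraries, 10157 were higher (23.4%) and 9472 lower (21.8%), so 45.1% of the tested genes were called (limma, adjusted p under 0.05). At a change of at least 1 on the log2(FPKM + 1) scale, 6634 genes were higher (15.3%) and 5163 lower (11.9%). With an equal summed FPKM in every library, an alternative chosen after the data were seen, these were 5728 higher and 6124 lower, so which set was larger turned round. At a change of at least 3, the numbers were 1237 higher and 643 lower, and at least 5 they were 236 and 82. Those at least 3 numbered 1083 higher and 700 lower with an equal summed FPKM, and 1170 and 693 with quantile normalization. The middle 50% of higher genes changed by 0.84 to 2.08 on the log2 scale, with a median of 1.30. For lower genes the quartiles were -1.68 and -0.74, with a median of -1.07. The median standard error was 0.23 in both sets. These changes understate those of genes at low FPKM, because 1 is added before the logarithm.

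The order of the libraries was also counted without a model. In 53.1% of the tested genes the 3 libraries of one stage lay entirely on one side of those of the other, with late senescence above buds in 26.4% and below in 26.7%. Without bud replicate 2, 10034 of the same tested genes were called higher and 8157 lower, of which 9244 and 7843 had the same call with it. No gene was called in opposite directions by these fits. The split depended on scaling. As deposited, 51.7% of called genes were higher and the median change of all tested genes was -0.02. Libraries rescaled to an equal summed FPKM gave 43.1% higher and a median change of -0.14, so relative to the sum of FPKM the balance turned to lower genes.

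**Figure D1:**
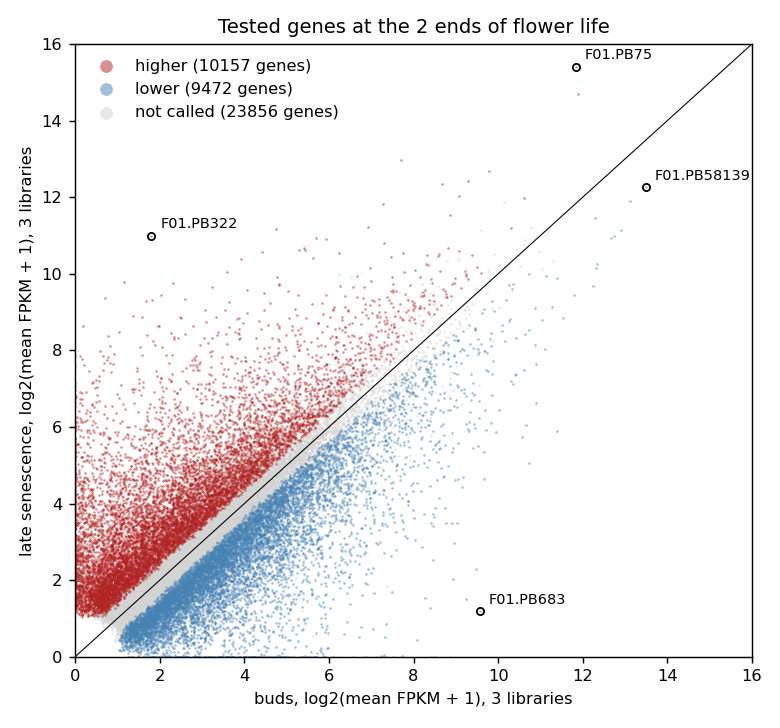
Each point is a tested gene, with its mean level in late senescence on the vertical axis and in buds on the horizontal axis, both as log2(mean FPKM + 1) over 3 libraries. Higher genes (red, 10157) spread farther from the diagonal line of equal level than lower genes (blue, 9472), and the 4 circled genes are those named in the text.

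More of the abundant genes than of the scarce genes were called. Among genes with a mean under 3 FPKM over the 6 libraries, 33.0% were called. The share was 43.6% from 3 to 10 FPKM, 54.9% from 10 to 30, 63.4% from 30 to 100 and 68.1% of the 1559 genes at 100 or more. Of the 1559, 561 were higher and 501 lower. The median standard error of the change lay between 0.22 and 0.25 in all 5 bands on the log2 scale, where adding 1 compresses changes at low levels.

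Among the called genes that changed by at least 1 on the log2 scale, the higher set had a median level of 13.7 FPKM in late senescence and 2.17 FPKM in buds. The lower set had a median of 3.34 FPKM in late senescence and 15.2 FPKM in buds. Of the higher set, 711 genes averaged 100 FPKM or more in late senescence, against 123 in buds, and 38 averaged 1000 or more in late senescence, against 3 in buds. Of the lower set, 116 averaged 100 FPKM or more in late senescence, against 566 in buds. In the higher set, 2228 genes averaged under 1 FPKM in buds. In the lower set, 1161 averaged under 1 FPKM in late senescence. Since the sets were chosen by these values, the levels show their size and are no test.

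Called genes held most of the summed FPKM at both ends. Higher genes held 54.4%, 49.1% and 53.4% of the summed FPKM in the late senescence libraries, against 13.9%, 15.7% and 14.7% in those of buds. Lower genes held 15.03%, 12.6% and 14.7% in late senescence, against 48.1%, 46.7% and 50.3% in buds. Since the sets were called by their levels at these ends, the shares there show their size and are no test. Genes that were tested and not called held 32.7% ± 4.10 in late senescence and 35.8% ± 1.52 in buds (SD, n = 3 each). Through the stages between, the share of the higher genes was 24.9% ± 0.672 in partial blooming, then 32.6% ± 4.67 in full blooming, then 50.1% ± 2.52 in early senescence. The lower genes held 38.6% ± 0.945, 31.9% ± 2.65 and 19.6% ± 1.80 in the same order of stages. By abundance, early senescence thus lay near late senescence for both sets.

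**Figure D2:**
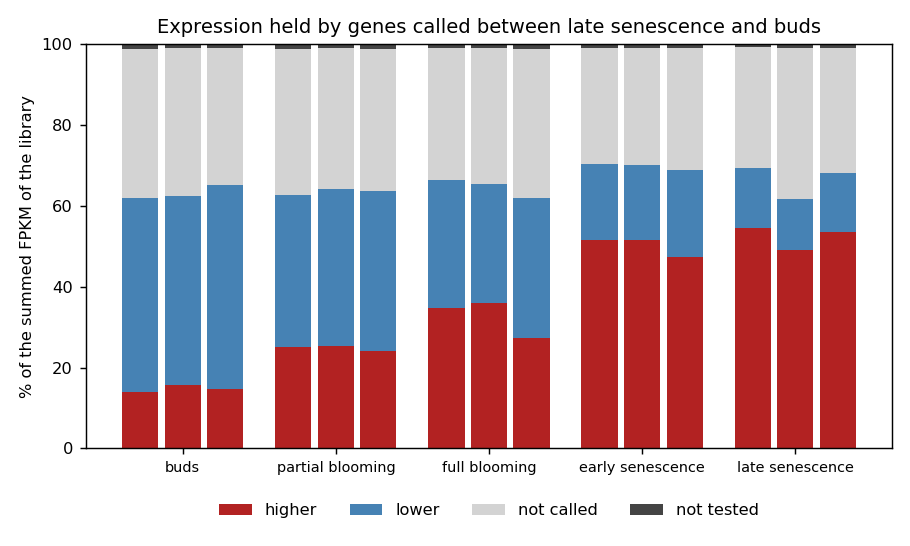
Stacked bars give, for each of the 15 libraries, the percent of its summed FPKM held by genes called higher or lower in late senescence than in buds, by genes not called and by genes not tested. The higher genes hold between 49.1% and 54.4% in late senescence libraries and between 13.9% and 15.7% in bud libraries, the stages by which they were called.

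The lists of most abundant genes overlapped in part. Of the 100 genes with the highest mean in late senescence, 36 were also among the 100 highest of buds, and of the 1000 highest, 520 were shared. The 100 highest of late senescence held 22.5% ± 1.75 of the summed FPKM there and 13.1% ± 0.493 in buds (SD, n = 3 each), and 63 of them were called higher and 14 lower. The 100 highest of buds held 14.8% ± 1.52 in late senescence and 19.7% ± 0.671 in buds, and 71 of them were called lower and 6 higher. Each list was picked by a stage mean that also entered the calls, so these directions are in part built in and are no test. Of all tested genes, 23.4% were called higher and 21.8% lower. Of those with a mean of 100 FPKM or more over the 6 libraries, 36.0% were higher and 32.1% lower.

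The most abundant gene of late senescence, F01.PB75, was also the most abundant of the genes that rose. It was at 50077.58, 33959.18 and 46337.92 FPKM in late senescence, against 3994.93, 4079.42 and 2906.85 FPKM in buds. All 4 named genes were chosen among those without overlap between the stages, so the separation of their libraries follows from the rule. F01.PB75 held 4.12% ± 0.675 of the summed FPKM in late senescence and 0.389% ± 0.0674 in buds (SD, n = 3 each), and ranked 11 by mean level in buds. On the log2 scale it rose by 3.57 ± 0.22 (SE; adjusted p of 4.96e-08 in limma), and the ratio of mean FPKM was 11.9. Its mean was 7235 ± 944 FPKM at partial blooming, 13510 ± 911 at full blooming and 31970 ± 3722 at early senescence (SD, n = 3 each), so that every stage mean exceeded the one before it.

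The largest rise among genes above 0 in all 6 libraries was that of F01.PB322. It was at 2235.06, 1781.49 and 2110.29 FPKM in late senescence, against 2.18, 3.07 and 2.17 FPKM in buds. On the log2 scale it rose by 9.20 ± 0.72 (SE; adjusted p of 4.69e-07 in limma), and the ratio of mean FPKM was 826. This course was unlike that of F01.PB75, since none of the partial and full blooming libraries exceeded 12.9 FPKM and the lowest of early senescence was at 181.57 FPKM.

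F01.PB683 had the largest fall by the same rule. It was at 1.75, 1.17 and 0.91 FPKM in late senescence, against 418.41, 778.84 and 1075.4 FPKM in buds. The change was -8.29 ± 0.40 on the log2 scale (SE; adjusted p of 8.48e-09 in limma), and mean FPKM was 593 times higher in buds. Most of the fall had passed before late senescence, with 224 ± 37.7 FPKM at partial blooming, 51.6 ± 27.4 at full blooming and 2.77 ± 0.349 at early senescence (SD, n = 3 each).

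F01.PB58139, the most abundant gene of buds, was the most abundant of those that fell. It was at 6158.89, 3504.72 and 5157.28 FPKM in late senescence, against 8662.19, 10326.4 and 15469.32 FPKM in buds. The change was -1.21 ± 0.30 on the log2 scale (SE; adjusted p of 0.00571 in limma), and mean FPKM was 2.32 times higher in buds. It still ranked 7 in late senescence. The call did not hold in the fit on the 5 libraries left without bud replicate 2 and the stages between (log2 change of -1.27; limma adjusted p of 0.0532). Full blooming replicate 3, at 6260.71 FPKM, lay well under the 12902.14 and 12321.8 FPKM of its stage.

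**Figure D3:**
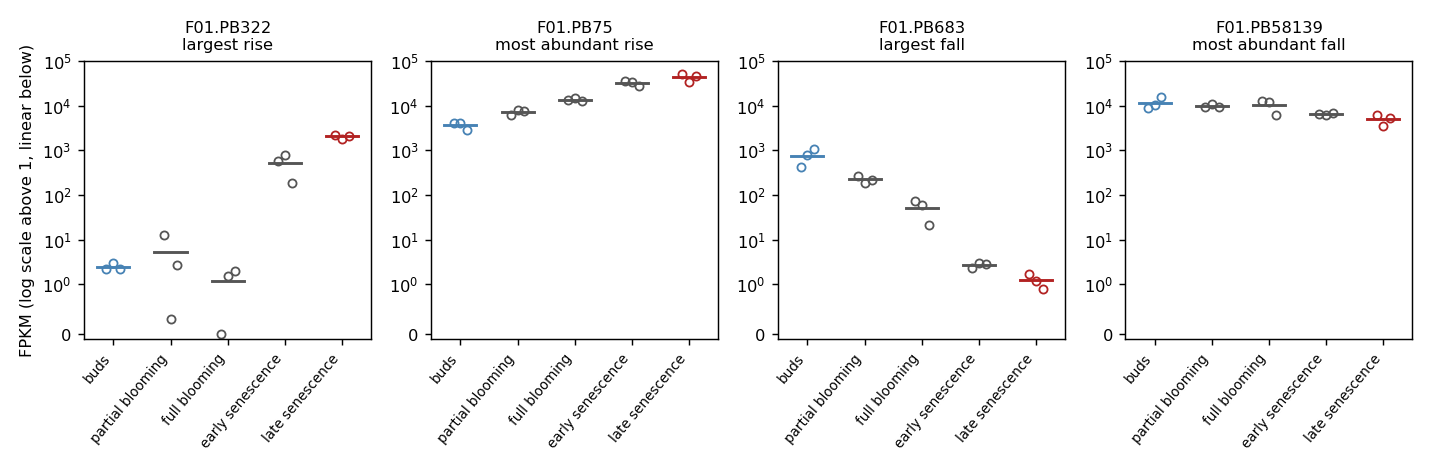
FPKM of the 4 named genes in all 15 libraries, on an axis that is logarithmic above 1 and linear below, with a circle per library, a line at each stage mean, late senescence in red and buds in blue. F01.PB75 climbs through all stages, F01.PB322 is at or under 12.9 FPKM until full blooming, F01.PB683 drops to 2.77 FPKM on average by early senescence, and F01.PB58139 changes least.

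As deposited, lower genes had by median place covered more of their change than higher genes at each stage between, and a shift of all genes moved with this. For each called gene with a change of at least 1, the stage means of log2(FPKM + 1) were placed on a scale from 0% (the bud mean) to 100% (the late senescence mean). Among the 5163 lower genes the median place was 33.9% at partial blooming, 51.4% at full blooming and 90.9% at early senescence. Among the 6634 higher genes it was 10.2%, 19.0% and 66.5% in the same order. Over all tested genes the median change from buds was -0.15 at partial blooming, -0.19 at full blooming, -0.24 at early senescence and -0.02 at late senescence, on the log2 scale. Other scalings, chosen for this after the data were seen, narrowed the gap. With median-ratio scaling the medians were 26.4%, 41.4% and 80.0% for lower genes and 14.6%, 27.4% and 77.7% for higher genes. Quantile normalization gave 27.3%, 40.9% and 77.4% for lower genes and 16.2%, 28.4% and 78.8% for higher genes, so the order turned at early senescence. With an equal summed FPKM the lower genes were at 27.4%, 46.2% and 83.2% and the higher genes at 13.9%, 22.6% and 75.1%. The genes were chosen by their ends, and the stages between entered the fit only through the estimate of spread. The places are a description, and the difference between the sets was not tested. Without bud replicate 2 the medians were 31.1%, 48.8% and 85.3% for lower genes and 12.2%, 23.3% and 63.4% for higher genes.

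**Figure D4:**
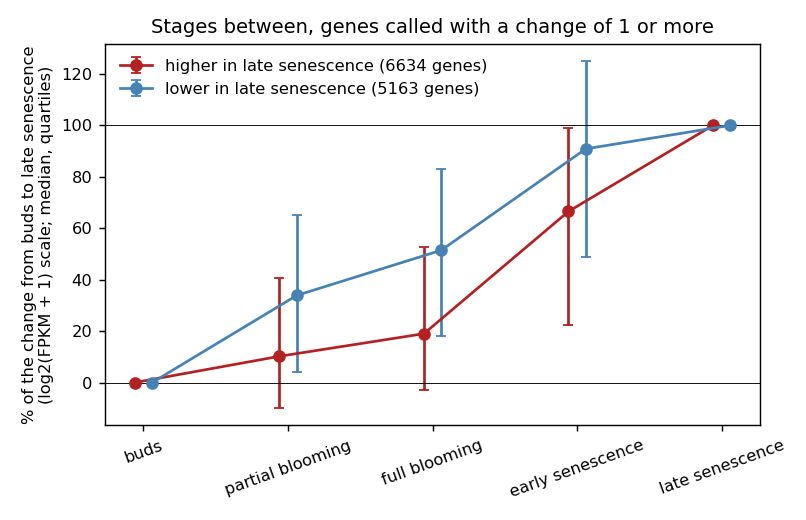
Points give the median and bars the quartiles, over genes, of the percent of the change from buds to late senescence reached at each stage, on the log2(FPKM + 1) scale. The median of lower genes (blue) is above that of higher genes (red) at each stage between, 51.4% against 19.0% in full blooming as deposited, an order that quantile normalization turned at early senescence (77.4% against 78.8%), and the quartiles of the sets overlap.

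The step that carried most of a gene's change was counted next. Of the higher genes, 2606 (39.3%) moved most from early to late senescence, 2427 (36.6%) from full blooming to early senescence and 1187 (17.9%) from buds to partial blooming. Of the lower genes, 1835 (35.5%) moved most from buds to partial blooming, 1607 (31.1%) from full blooming to early senescence and 1389 (26.9%) from early to late senescence. These counts move with the shift of all genes, whose median was 0.22 higher in late than in early senescence as deposited. With median-ratio scaling, which left 0.05 of that, the last step was the largest in 32.9% of higher and 33.4% of lower genes, and the step from buds to partial blooming in 20.3% and 30.04%. The step from full blooming to early senescence then led among higher genes (39.0%), as with quantile normalization (39.3%) and an equal summed FPKM (39.3%). Among lower genes the last step led with median-ratio scaling and quantile normalization (34.1%), and the first with an equal summed FPKM (31.6%). As deposited, 414 higher genes (6.24%) and 332 lower genes (6.43%) had their largest step from partial to full blooming.

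A straight path from one end to the other was the less frequent course. The means of all 3 stages between lay within the range of the ends in 2123 of the higher genes (32.0%) and in 1649 of the lower genes (31.9%). In 1047 higher and 957 lower genes every step went the way of the whole change. Late senescence was the highest stage of 73.2% of the higher genes, and early senescence of 21.0%. Buds were the lowest stage of 55.0% of them, and partial blooming of 26.0%. These shares are as deposited. Under median-ratio scaling, early senescence was highest in 29.95% of higher genes, buds lowest in 61.1% and partial blooming lowest in 23.8%. Quantile normalization gave 29.5%, 62.9% and 22.6% in the same order. Without bud replicate 2, buds were lowest in 62.8% and partial blooming in 21.2%. For the lower genes, buds were the highest stage in 74.7% and partial blooming in 16.1%. Late senescence was the lowest stage in 55.0% of them and early senescence in 41.8%, beside the shift of all genes between these stages. The share of lower genes lowest in early senescence was 35.0% under median-ratio scaling and 32.1% under quantile normalization. It was 38.5% without bud replicate 2. Stage means differ by chance too, and these orders were not tested gene by gene.

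Some genes close to equal at the ends departed from both in between. The 95% interval of the change lay within 1 log2 unit of 0 in 17527 tested genes (40.3%). Of these, 662 (3.78%) had a stage between with a mean at least 1 log2 unit below both ends, namely partial blooming for 142, full blooming for 228 and early senescence for 525, a gene counting at each such stage. Another 392 (2.24%) had a stage at least 1 above both ends, namely 189 at partial blooming, 221 at full blooming and 223 at early senescence. These counts are given only as deposited. There, the median change of all tested genes from buds was -0.24 at early senescence and -0.02 at late senescence, a shift that lowers early senescence against both ends. Stage means also differ by chance, and these departures were not tested gene by gene. Of the 17527 genes, 15240 (87.0%) were not called, and the others were called with a change of less than 1. A missed call did not show equality. Of the 23856 genes not called, 8616 had an interval that reached a change of 1 in either direction.

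Buds were also the baseline of the other stages. On the same tested genes and fit, early senescence against buds called 7735 higher and 12546 lower genes (46.6%), and full blooming against buds called 4153 higher and 6368 lower (24.2%). Partial blooming against buds called 2976 higher and 3769 lower (15.5%). These comparisons share the bud libraries and are set side by side without a test. The median size of the change over all tested genes was 0.60 on the log2 scale for early senescence and 0.59 for late senescence. The median signed change as deposited was -0.19 for full blooming, -0.24 for early senescence and -0.02 for late senescence. With median-ratio scaling it was -0.03, -0.03 and 0.02 in the same order. The counts of the other stages against buds are given only as deposited. How far their excess of lower genes moves with scaling was not tested.

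All-or-none differences were found in both directions. A level of 1 FPKM or more in each late senescence library and under 0.1 FPKM in each bud library was found for 376 genes. The reverse, under 0.1 FPKM in each late senescence library and at 1 or more in each bud library, held for 243 genes. Of the 376, 268 were listed at 0 in every bud library, and of the 243, 225 were listed at 0 in every late senescence library. A listed 0 may also be an estimate that failed, and no fold is given. The 376 had a median level of 4.87 FPKM in late senescence and a highest of 229, with 111 at 10 or more. The 243 had a median of 10.1 FPKM in buds and a highest of 464, with 122 at 10 or more. Both sets were small by abundance, at 0.519% ± 0.0721 of the summed FPKM of late senescence for the 376 and 0.623% ± 0.170 of that of buds for the 243 (SD, n = 3 each). A further 175 genes of the late kind and 44 of the bud kind met the rule with a limit of 0.2 FPKM in place of 0.1.

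Most of these genes passed the 1 FPKM level between early and late senescence. Among the 376, 235 (62.5%) were at 1 FPKM or more in all 3 libraries of no stage before late senescence, 108 (28.7%) were first so in early senescence, 11 in full blooming and 22 in partial blooming. Among the 243, 154 (63.4%) were last at 1 or more in all 3 libraries in early senescence, 25 in full blooming, 26 in partial blooming and 38 in buds. Any difference between plants of the 2 stages cannot be told apart from the stage here. Bud replicate 2 bore on the count of the late kind. Without it, 796 genes met the rule, against 486 without bud replicate 1 and 502 without bud replicate 3. Of the 420 genes gained without bud replicate 2, 299 were at 1 FPKM or more in that library. Of the 110 and 126 gained without bud replicates 1 and 3, 28 and 27 were at that level in the library left out. The count of the bud kind was 381 without bud replicate 2 and 383 without late senescence replicate 3.

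Each library was also placed among genes called without it. The fit was repeated with each of the 6 libraries left out, and that library was placed between the mean of the 2 other libraries of its stage (0%) and the mean of the opposite stage (100%) for genes called with a change of at least 1. Among genes higher in late senescence, bud replicate 2 lay past the midpoint, nearer to late senescence, in 1251 of 7407 (16.9%). For bud replicates 1 and 3 these were 331 of 6478 (5.11%) and 325 of 6442 (5.05%). The late senescence libraries lay past the midpoint toward buds in 6.28%, 8.66% and 6.67% of such genes. Among genes lower in late senescence, bud replicate 2 was not the farthest, at 9.82%, against 4.69% for replicate 1 and 12.8% for replicate 3.

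**Figure D5:**
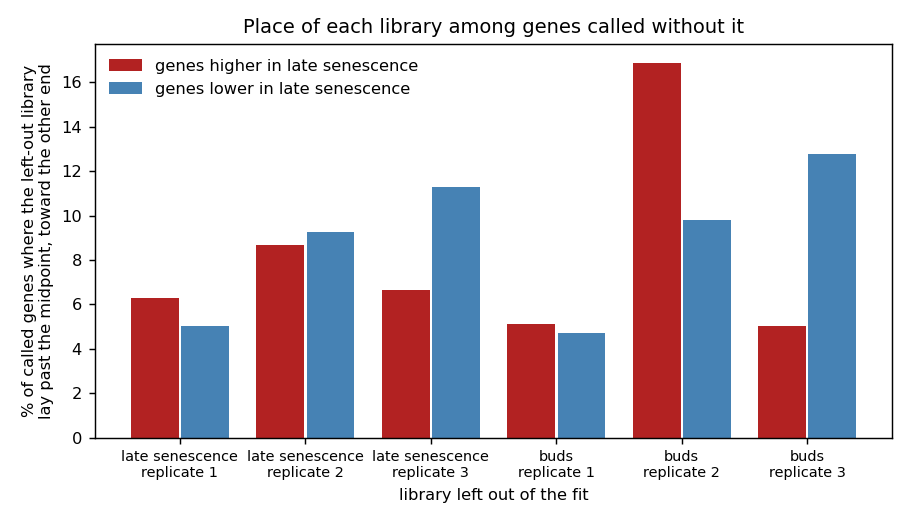
Bars give, for each library left out of the fit, the percent of genes called without it (change of at least 1 on the log2 scale) in which it lay past the midpoint toward the other end. Bud replicate 2 stands out among genes higher in late senescence, at 16.9%, where the other 5 libraries lie between 5.05% and 8.66%.

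The 1251 genes in which bud replicate 2 lay past the midpoint differed in course from the other higher genes, most of all at early senescence. Their median level was 6.34 FPKM in bud replicate 2. Over late senescence it was 8.49 FPKM. Their median place between the other buds and late senescence was 4.25% at partial blooming, 25.3% at full blooming and 25.4% at early senescence. For the other 6156 higher genes these were 13.1%, 21.8% and 71.2%. Among lower genes, the 510 in which bud replicate 2 lay past the midpoint were at 14.7%, 34.5% and 41.2%. The other 4681 were at 32.6%, 49.9% and 89.0%. No such course is given for bud replicates 1 and 3, so it cannot be called particular to bud replicate 2. The genes in which bud replicate 2 resembled late senescence were thus, by median, nearer to the other buds in early senescence. Whether this library holds mixed or exchanged material was not tested, and the bud means include it except where given without it.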

How the data were processed

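RNA sequencing libraries of whole tulip flowers were analysed from 1 deposited table of FPKM values, with 1 column per library and 2 decimals. The unit is read from the table's name and values. The submitters' processing notes list DESeq 1.18.0, HTSeq 0.6.1, TopHat2 2.0.12 and Bowtie2 2.2.3, without their roles. For the reference, its annotation and any filter, the authors' choices are not given in the sources. Columns were matched to libraries by the code in the labels. Depth is unknown.

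The deposited FPKM values were transformed to log2(FPKM + 1) and fitted with limma 3.58.1 in R 4.3.3 (mean-variance trend, stage as the only term, all 15 libraries, so that stages share 1 estimate of spread). Tested genes had 1 FPKM or more in at least 3 of the 6 libraries compared. Tests were two-sided with Benjamini-Hochberg adjustment over all tested genes, called at an adjusted p under 0.05. For a left-out library, genes needed 1 FPKM in 2 of the other 5. Single values per library were compared by an exact permutation test. The script was tested on simulated data.

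Named genes were, in each direction, the largest called change among genes above 0 in all 6 libraries with a mean of at least 10 FPKM at the higher end, and the most abundant called gene that changed by at least 1, all without overlap. Gene lists had been drawn up and could not be matched to unnamed identifiers. The stages compared, the rules and the lists were chosen with earlier results of these data known.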

Additional observations from a re-analysis of the deposited data

How the results depend on the processing

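The alternatives gave 280 values, of which 246 held their call or lay within 1.5 times the reported count (within the binomial interval for shares of genes, within the spread between libraries for measures per library), 32 moved and 2 lost their call. No named gene changed direction, but the balance of calls did turn. Requiring a change of more than 1 log2 unit in the test itself left 2906 higher and 1731 lower genes, which follows from its construction. The percent of called genes that were higher, 51.7 as reported, was 54.1 with no filter, 52.5 with median-ratio scaling, 46.0 with quantile normalization, 50.1 with library quality weights, 62.7 with the minimum change, 56.5 on the 6 libraries alone without bud replicate 2, 43.1 with equal summed FPKM, and 49.6 to 55.2 without each library in turn. It was thus under 50 with quantile normalization, with equal summed FPKM, without bud replicate 3 (49.7) and without full blooming replicate 3 (49.6). Genes whose libraries did not overlap made up 54.3% with median-ratio scaling and 58.3% to 62.9% without each of the 6 libraries, where fewer libraries make separation easier. Genes of the late all-or-none kind numbered 1056 with a limit of 0.5 FPKM for not seen, 134 with a minimum of 5 for seen, and 427 to 796 without each library; those of the bud kind numbered 482, 121 and 279 to 383. Apart from the limits and the fewer libraries, the causes of these shifts were not tested. The fit on the 6 libraries alone called 8752 higher and 8294 lower genes. F01.PB58139 was not called with the minimum change (limma adjusted p of 1) or on the 6 libraries without bud replicate 2 (0.0532), and its adjusted p went down to 4.03e-06 with quantile normalization. F01.PB322, F01.PB75 and F01.PB683 kept direction and call under the 27 alternatives run for each. With a replicate block, 9858 genes were higher and 9192 lower. Deviations of same-numbered libraries from their stage means correlated at -0.05, 0.01 and -0.05 across genes. In these deviations, no late senescence library correlated best with the bud library of its own number. By level, each late senescence library correlated best with bud replicate 2, late senescence replicate 2 among them (0.695). Pairing by number was thus not seen in the deviations, but 3 libraries per stage are too few to settle whether same-numbered libraries belong together. With depth unknown, no counting error could be set beside genes at low FPKM.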
